A study of Mus musculus with 36 samples.

Results

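The transcripts described here had a longer half-life in mESCs (mouse embryonic stem cells) treated with puromycin than in both control and G418-treated mESCs. They were selected by their deposited half-lives and read numbers: a transcript entered when it had at least 500 and fewer than 10000 average reads, and a puromycin half-life at least 2 times its control half-life and at least 2 times its G418 half-life. The rule found 244 transcripts among the 5834 in this read range and the 10325 listed in all, and they are called puromycin-long transcripts. Since the half-lives of all 3 conditions chose them, the gap between puromycin and the other conditions is a description and was not tested.

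Half-lives came from SLAM-Seq in E14Tg2a cells, a mouse embryonic stem cell line of strain 129/Ola, grown in 2i medium, which keeps the cells pluripotent. All cells were fed 100 μM 4-thiouracil for 24 h, with medium exchanged every 8 h, and then switched to 10 mM uridine with no antibiotic, with 0.1 μg/mL G418 or with 0.1 μg/mL puromycin, so that the antibiotics were present only during the chase. Each condition was sampled at 0, 1, 2, 4, 8 and 24 h with 2 replicates, giving 12 libraries per condition and 36 in all. The study calls the replicates biological, and the labels do not say whether they were separate cultures. The table gives 1 half-life in minutes per transcript and condition, with the replicates already combined, and 1 read number per transcript that is an average over the 36 libraries. No value below therefore has a replicate error, and no difference has a replicate check.

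In SLAM-Seq, RNA made during the pulse carries 4-thiouridine, which reads as C in place of U after alkylation, and the loss of converted reads over the chase gives the decay rate. Puromycin resembles the end of a charged tRNA. It enters the A site of the ribosome, is joined to the growing peptide and releases it unfinished. G418 is an aminoglycoside that binds the decoding centre and lets near-cognate tRNAs through, so that wrong amino acids are built in while elongation goes on. Translation and mRNA decay are linked in general, because deadenylation and surveillance factors can be recruited by slow, stalled or prematurely ended translation. A comparison of the 2 antibiotics with control asks how far each way of disturbing translation moves mRNA stability.

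In the puromycin-long transcripts median half-lives were 166 min in control cells, 170.2 min under G418 and 541 min under puromycin. The quartiles were 115 and 242 min in control cells, 116 and 233 min under G418, and 319 and 899 min under puromycin. The quartiles of control and G418 were thus close to each other, while the whole range was 43.1 to 702 min in control cells and 30.0 to 454 min under G418. The puromycin half-lives ran from 118 to 2635 min, and the rule places each above the other half-lives of its transcript. In the read range as a whole the median was 179 min in control cells, 171 min under G418 and 187 min under puromycin. The control and G418 medians of the puromycin-long transcripts were therefore close to those of the read range, at 166 against 179 min and 170.2 against 171 min, and their puromycin median was not. On the scale of decay, a half-life of the median size leaves 13.5% of the labelled RNA after 8 h in control, 14.2% with G418 and 54.1% with puromycin, as the median over the transcripts of the percent left under simple exponential decay. The same medians over the read range were 15.6%, 14.3% and 16.9%.

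**Figure D1:**
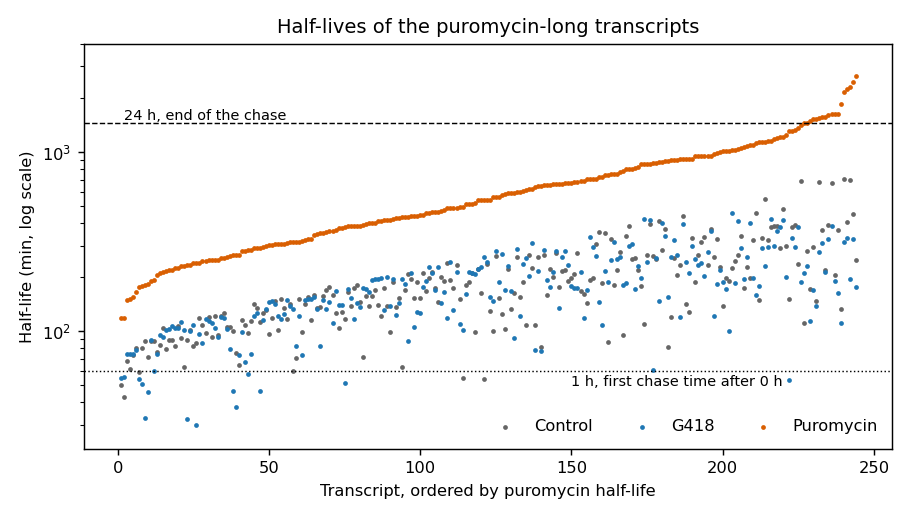
Half-life in minutes on a log scale for each of the 244 puromycin-long transcripts, ordered by puromycin half-life, with 1 point per condition and no error bars because the table holds 1 value per condition. The quartiles of control (115 and 242 min) and G418 (116 and 233 min) overlap, and 17 puromycin points lie above the dashed line at 24 h.

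Half-lives were also placed between the sampling times of the chase. In control, 63 of the 244 (25.8%) had a half-life from 60 to 120 min, 114 (46.7%) from 120 to 240 min and 55 (22.5%) from 240 to 480 min, against 17.3%, 53.9% and 22.8% of the read range. With puromycin, 25 (10.2%) had a half-life from 120 to 240 min, 81 (33.2%) from 240 to 480 min and 119 (48.8%) from 480 min to 24 h, against 52.4%, 24.96% and 5.33% of the read range. The rule used these half-lives, so the shares are a description. The largest single groups were 55 transcripts with a control half-life of 120 to 240 min and a puromycin half-life of 480 min to 24 h, and 54 with the same control range and a puromycin half-life of 240 to 480 min. A half-life beyond 8 h, the last time point before 24 h, was listed for 136 of the 244 with puromycin, for 7 in control and for 0 with G418. Over the 5834 transcripts of the read range the numbers were 329 with puromycin, 272 in control and 143 with G418. The rule bounds the control and G418 half-lives by the puromycin half-life, so nothing is read from this contrast.

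A puromycin half-life above the 24 h chase was listed for 17 transcripts, from 1446 to 2635 min. Such a value lies beyond the last sample taken and rests on the fitted curve. Their control half-lives were 133 to 702 min and their G418 half-lives 111 to 387 min. At the other end, 5 transcripts (2.05%) had a control half-life and 15 (6.15%) a G418 half-life under 60 min, before the first time point after 0 h, against 1.37% and 1.39% of the read range. Because the rule bounds both of these half-lives from above, the shares are a description. Without every transcript that had a half-life outside 60 min to 24 h in any condition, 210 puromycin-long transcripts were left among 5599.

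The size of the difference varied over a wide range. Each transcript was ranked by the smaller of its 2 folds, puromycin over control or puromycin over G418. The smaller fold had a median of 2.51 and quartiles of 2.16 and 3.39, so many transcripts lay near the limit. It was under 2.5 for 120 of the 244 (49.2%), from 2.5 to 3 for 41, from 3 to 4 for 50, from 4 to 6 for 23 and at least 6 for 10. The highest value was 14.0, for a transcript with half-lives of 133 min in control cells, 111 min under G418 and 1858 min under puromycin. That transcript had 501 average reads, the fewest of the 244, and its puromycin half-life lay beyond the 24 h chase. The 17 transcripts with such a puromycin half-life had a median smaller fold of 5.17. Where all half-lives lay from 60 min to 24 h, the highest smaller fold was 7.91. Over the 244, the median log2 ratio was 1.53 for puromycin over control and 1.59 for puromycin over G418, 2 ratios that share the puromycin half-life.

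Just inside the limit, 69 transcripts had a smaller fold of 2.00 to 2.20, with median half-lives of 141 min in control cells, 147 min under G418 and 357 min under puromycin. Just outside, 87 transcripts had a smaller fold of 1.82 to 2.00, with medians of 145, 144 and 336 min in the same order of conditions. Their median read numbers were 858 inside and 866 outside. The limit therefore divides a continuous distribution of ratios. At the lower edge of the read range, 27 of 417 transcripts with 500 to 550 average reads were puromycin-long (6.47%), and 35 of 440 with 450 to 500 reads met the same half-life rule (7.95%).

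The identifiers are UCSC transcript names, and the table does not pair them with genes. All counts are therefore of transcripts, and the number of genes behind them is unknown. In the annotation used here 0 of the 10325 identifiers were found, so genes, cell type markers and sequences were not analysed here, and only 2 transcripts of each direction are named, by a rule. The puromycin-long transcript with the most reads was uc008vna.2, with half-lives of 146 min in control cells, 227 min under G418 and 462 min under puromycin. It had 9763 average reads, or 351483 over all libraries. Its puromycin half-life was 3.17 times that in control but 2.04 times that with G418, so it lies close to the limit and its G418 half-life was also longer than in control.

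Among the puromycin-long transcripts with at least 1000 average reads and all half-lives from 60 min to 24 h, the highest smaller fold belonged to uc012edr.1. Its half-life was 108 min in control cells, 78.2 min under G418 and 635 min under puromycin, at 1989 average reads. Puromycin was 5.91 times control and 8.12 times G418. Under exponential decay these half-lives leave 4.53% of the RNA after 8 h in control, 1.42% with G418 and 59.2% with puromycin.

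Whether a transcript was lengthened by puromycin alone depends on its G418 half-life, which the rule only bounds from above. The G418 half-life was within 1.5-fold of control for 176 of the 244 (72.1%), against 67.3% of the read range. It was at least 2-fold longer than the control value for 12 (4.92%), where 4.70% of all transcripts in the read range were, and at least 2-fold shorter for 20 (8.20%), where 8.18% were. Both shares are near those of the read range, and the rule bounds the control and the G418 half-life by the same puromycin value, so nothing is read from these shares. For the 12 transcripts the word only does not hold, since they were picked for a G418 half-life at least 2-fold above control. Their median half-life was 103 min in control cells, 257 min under G418 and 594 min under puromycin. For the 20 transcripts the median was 261 min in control cells, 120.02 min under G418 and 869 min under puromycin. In both groups the order of the conditions is set by the selection, so these medians are a description. The same 20 also had a G418 half-life at most 1/2 of both other conditions, 14.5% of the 138 transcripts with that pattern.

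The control half-life was the longer of the 2 comparators for 137 transcripts and the G418 half-life for 107 (43.9%). In the read range the G418 half-life was the longer for 43.7%, so this split is that of the background. The 137 had median half-lives of 142 min under G418, 185 min in control cells and 591 min under puromycin. By construction they also meet the definition of G418-sensitive mRNAs, which asks for a G418 half-life at most 1/2 of the puromycin half-life with control in between. They were 56.1% of the puromycin-long transcripts and 38.8% of the 353 G418-sensitive transcripts in the read range. The 56.1% is the split just given, and both definitions use the same puromycin and G418 half-lives, so nothing is read from this overlap. The 107 others had medians of 142 min in control cells, 195 min under G418 and 541 min under puromycin. For G418 over control, the 244 had a median log2 ratio of -0.04 with an SD over transcripts of 0.63, and the read range one of -0.09 with an SD of 0.70.

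**Figure D2:**
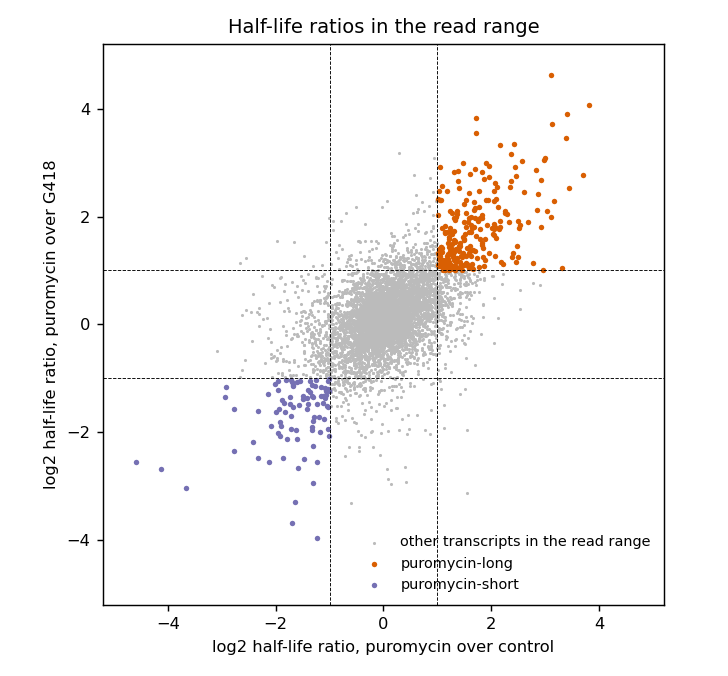
The log2 half-life ratio of puromycin over G418 against that of puromycin over control, 1 point per transcript, for the 5834 transcripts in the read range, with dashed lines at 2-fold. The 244 puromycin-long transcripts fill the upper right corner and the 87 puromycin-short transcripts the lower left. Both axes hold the same puromycin half-life.

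In the read range, the puromycin half-life was at least 2-fold longer than control for 516 transcripts (8.84%) and at least 2-fold shorter for 387 (6.63%). It was at least 2-fold longer than with G418 for 522 (8.95%) and at least 2-fold shorter for 258 (4.42%). The puromycin-long transcripts are those that passed both, 4.18% of the read range.

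The number was set beside that of the mirror rule. With the puromycin half-life at most 1/2 of both others, 87 transcripts were found, 1.49% of the read range. There were thus 2.80 times as many puromycin-long as puromycin-short transcripts. The puromycin-short transcripts had median half-lives of 259 min in control cells, 257 min under G418 and 83.5 min under puromycin. For 30 of the 87 the puromycin half-life was under 60 min, and when transcripts with any half-life outside 60 min to 24 h were left out, 55 stood against the 210 puromycin-long. The puromycin-short transcript with the most reads was uc007wzc.2, at 1120 min in control cells, 1107 min under G418 and 298 min under puromycin (3169 average reads). The one with the highest smaller fold, by the same conditions as above, was uc012amp.1, at 1330 min in control cells, 488 min under G418 and 76.4 min under puromycin (1151 average reads). Its control and G418 half-lives differed from each other by more than 2-fold.

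The same rule was applied with each other condition apart. Control was at least 2-fold longer than both antibiotics for 186 transcripts (3.19%) and at most 1/2 of both for 112 (1.92%), a ratio of 1.66. G418 was at least 2-fold longer than both others for 91 transcripts (1.56%) and at most 1/2 of both for 138 (2.37%), a ratio of 0.659. Both directions together, control stood apart in 298 transcripts, puromycin in 331 and G418 in 229. These numbers share transcripts. Of the 112 control-short transcripts 12 (10.7%) were also puromycin-long, 4.92% of the 244, and 5 of the 87 puromycin-short transcripts were also control-long. In the 186 control-long transcripts median half-lives were 490 min in control cells, 157 min under G418 and 177 min under puromycin.

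The medians of the conditions differ over the read range, and centring on them changed the balance. The study reports generally longer half-lives with puromycin and shorter ones with G418 as effects of the antibiotics. Centring takes out such a general shift whatever its source, which was not tested here. When each half-life was divided by the median of its condition over the read range, 187 puromycin-long transcripts were found, all of them among the 244, and 57 were no longer past 2-fold. The centred number of puromycin-short transcripts was 122. For control the centred numbers were 190 long and 108 short, and for G418 they were 107 long and 112 short. After centring, puromycin-long transcripts were therefore slightly fewer than control-long ones at this 2-fold limit. The ratio of long to short was then 1.53 for puromycin, 1.76 for control and 0.955 for G418.

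**Figure D3:**
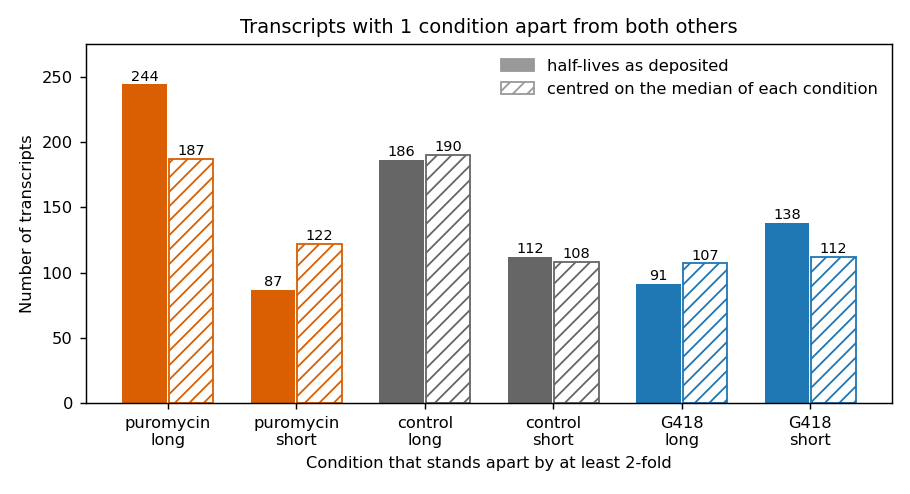
Number of transcripts in the read range whose half-life in 1 condition was at least 2-fold longer or shorter than in both others, for half-lives as deposited (filled bars) and centred on the median of each condition (hatched bars). The highest filled bar is puromycin-long at 244, and the centred bars are 187 for puromycin-long and 190 for control-long.

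The numbers were also taken at higher fold limits. With a limit of 3, there were 83 puromycin-long, 47 control-long and 35 G418-long transcripts, and after centring 72, 48 and 39. With a limit of 4 the numbers were 33, 20 and 12, and centred 26, 19 and 20. A smaller fold of at least 8 was found for 5 puromycin-long transcripts, 0 control-long and 1 G418-long, and after centring for 5, 0 and 3. As deposited, each of the 5 puromycin-long transcripts had a puromycin half-life above 24 h or a G418 half-life under 60 min. In the mirror direction, 23 puromycin-short, 14 control-short and 17 G418-short transcripts were found at a limit of 3. Long patterns outnumbered short ones in all 3 conditions at this limit, both as deposited and centred.

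**Figure D4:**
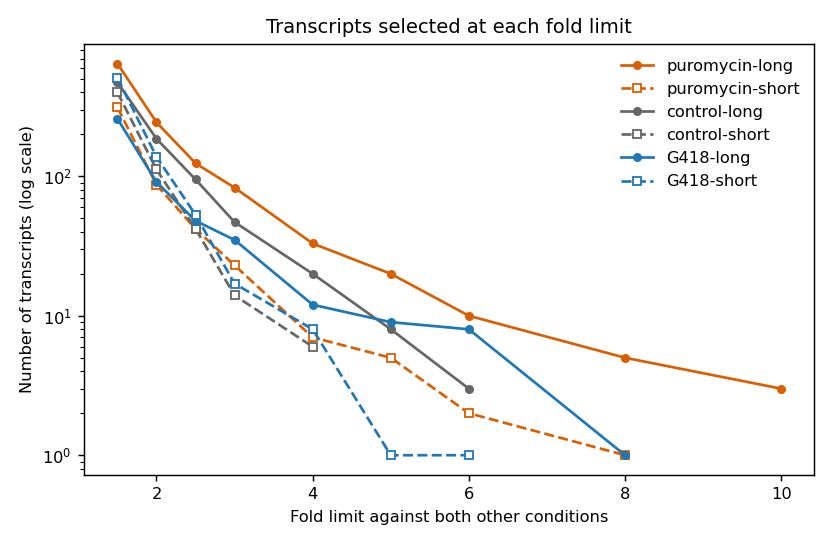
Number of transcripts in the read range, on a log scale, selected at fold limits from 1.5 to 10 for each condition apart, with longer half-lives as filled circles and shorter ones as open squares. Limits at which no transcript was found have no point. For half-lives as deposited, the puromycin-long line lies above the others at each limit, from 644 transcripts at 1.5-fold to 3 at 10-fold.

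The puromycin-long transcripts had few reads for the range they came from. Their median was 823 average reads with quartiles of 611 and 1185, against a median of 1052 and quartiles of 704 and 1802 in the read range, and 161 of the 244 had under 1000. Together they took 3.17% of the reads in the range. The other patterns had lower medians, with median read numbers of 656 for puromycin-short, 800 for control-long, 724 for control-short, 798 for G418-long and 813 for G418-short transcripts.

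The share of puromycin-long transcripts was smaller from 1000 to 10000 average reads than from 500 to 1000. It was 5.97% (101 of 1692) from 500 to 750 average reads, 5.68% (60 of 1056) from 750 to 1000, 2.92% (53 of 1813) from 1000 to 2000, 2.33% (24 of 1030) from 2000 to 5000 and 2.47% (6 of 243) from 5000 to 10000. Above the read range, at 10000 average reads or more, 6.21% (10 of 161) met the same half-life rule. The share of puromycin-short transcripts went from 3.07% (52) to 1.33% (14), 0.883% (16), 0.485% (5) and 0 over the same bins. Control-long transcripts made up 4.73% (80), 3.03% (32), 2.48% (45) and 2.33% (24) of the bins from 500 to 5000 reads. Their number equalled that of puromycin-long transcripts from 2000 to 5000 reads and was lower in each bin from 500 to 2000. From 5000 to 10000 reads there were 6 puromycin-long, 5 control-long and 1 G418-long transcripts. With at least 1000 average reads, 83 puromycin-long, 21 puromycin-short and 74 control-long transcripts were found among 3086. When these were also centred, a setting added after the data had been seen, the numbers were 58, 29 and 77, so that control-long transcripts were then the more frequent. The part of read number in these shares was not tested.

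**Figure D5:**
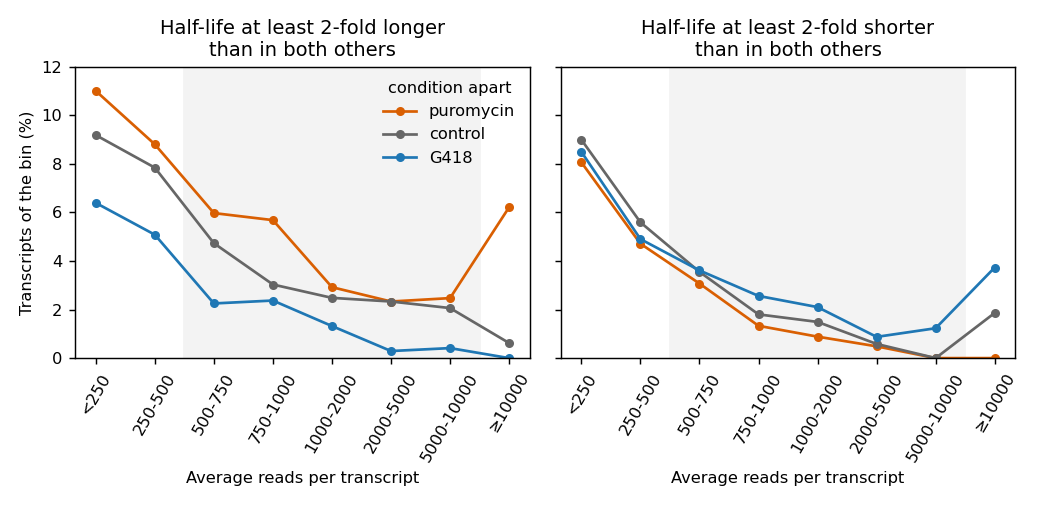
Percent of the transcripts in each bin of average reads whose half-life was at least 2-fold longer (left) or shorter (right) than in both other conditions, 1 line per condition apart. The shaded bins are the read range of the rule. In both panels the shares are lower from 2000 to 5000 reads than under 750, and the puromycin line is near the control line on the left from 2000 to 10000 reads.

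The 30 puromycin-long transcripts with at least 2000 average reads are those whose half-lives rest on the most reads. Their median half-life was 274 min in control cells, 264 min under G418 and 827 min under puromycin. The control values ran from 54.2 to 702 min, the G418 values from 32.3 to 421 min and the puromycin values from 212 to 2453 min. Their median smaller fold was 2.51 and that of all 244 was also 2.51. The 161 transcripts with under 1000 reads had median half-lives of 157, 154 and 494 min and a median smaller fold of 2.55. Half-lives of all transcripts in the same read classes were not compared here. The longer half-lives at more reads are therefore not read as a trait of the puromycin-long transcripts.

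Puromycin-long transcripts were found at all levels of stability. The level was taken as the geometric mean of the control and G418 half-lives. Below 120 min, 59 of 960 transcripts were puromycin-long (6.15%), from 120 to 240 min 125 of 3527 (3.54%), and from 240 min upward 60 of 1347 (4.45%). For the other long patterns, each classed by the mean of its own 2 comparators, the shares were 6.28%, 2.24% and 3.54% for control-long and 4.58%, 1.15% and 0.816% for G418-long transcripts. All 3 long patterns were thus most frequent in the lowest class. The short patterns were most frequent in the highest class in all 3 conditions, with 0.938%, 0.907% and 3.41% for puromycin-short, 0.662%, 1.18% and 4.52% for control-short, and 0.469%, 1.15% and 5.96% for G418-short transcripts. The classes are made from half-lives that the rules use, so these shares are a description.

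The longest half-lives were set against the rule for their own condition. Of the 329 transcripts in the read range with a puromycin half-life over 480 min, 136 (41.3%) were puromycin-long. Of the 272 with a control half-life over 480 min, 94 (34.6%) were control-long, and of the 143 with a G418 half-life over 480 min, 41 (28.7%) were G418-long. Above 24 h the numbers were 17 of 18 for puromycin, 11 of 13 for control and 3 of 5 for G418. Most half-lives beyond the end of the chase thus met the long rule of their own condition. The rule uses the same half-life that picked these transcripts, which favours a high share, so the shares are a description.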

How the data were processed

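Alignment was done by the authors with Bowtie2 on mouse transcripts (mm10 in the methods, mm10 and GRCm39 in the submitters' processing notes, version not given in the sources used here). Custom scripts counted U to C conversions for each mRNA and time, and an exponential decay was fitted. The authors deposited half-lives in minutes and average read numbers. Each average times 36 was whole within 0.005 for 100% of transcripts. How replicates were combined and whether conditions were scaled is not stated. Reads on the table add up to a mean of 14634046 per library, and the depth of each library is unknown. Conversions, which set the precision, were not analysed here, so no interval is given.

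From the half-lives, transcripts with 1 condition apart were counted by 6 rules (3 conditions, longer or shorter). No statistical test was run, because there are no replicate values and the rule uses all half-lives. The named transcripts are, in each direction, the one with the most reads and the one with the highest smaller fold at 1000 or more reads and half-lives from 60 min to 24 h. Members and rules were chosen with earlier results of these data known. Alternatives were fold limits of 1.5 and 3, a minimum of 1000 reads, centring, half-lives from 60 min to 24 h and no upper read limit. The code of the rules was checked on simulated half-lives, which gives no error rate for the deposited ones. Calculations ran in Python 3.11.15 with scipy 1.17.1, pandas 2.3.3 and numpy 2.4.6, and plots were drawn with matplotlib 3.10.9.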

Additional observations from a re-analysis of the deposited data

How the results depend on the processing

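Of 42 alternative counts, 17 were within 1.5 times the count reported and 25 were not. A wider or narrower fold limit, a higher read minimum and a limit to half-lives from 60 min to 24 h change the counts by their construction. The cause of the changes with centring was not tested. At a fold limit of 1.5 there were 644 puromycin-long, 312 puromycin-short, 473 control-long, 400 control-short, 259 G418-long and 509 G418-short transcripts. At a limit of 3 there were, in this order, 83, 23, 47, 14, 35 and 17. With at least 1000 reads there were 83, 21, 74, 33, 28 and 50. With this minimum and centring together, chosen after the data were seen, there were 58, 29, 77, 31, 35 and 39. A limit to half-lives from 60 min to 24 h moved the puromycin-short count to 55. Centring alone and no upper read limit kept each count within 1.5 times, but centring put control-long (190) above puromycin-long (187) at the fold limit of 2. At other limits the centred puromycin-long count was the higher, with 512 against 476 at 1.5, 104 against 93 at 2.5 and 72 against 48 at 3. Centring also moved the median log2 ratio over the read range from 0.05 to -0.02 for puromycin over control and from 0.15 to 0.02 for puromycin over G418. No paired analysis was possible because the table gives 1 half-life per transcript and condition, and for the same reason no replicate could be left out. Reads per condition and converted reads were not analysed here, so the precision of a single half-life is not known.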

Other observations

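Outside the read range, 10 of the 161 transcripts with at least 10000 average reads met the same half-life rule (6.21%), with 11016 to 289411 average reads. Their median half-life was 538 min in control cells, 513 min under G418 and 1888 min under puromycin, the last beyond the 24 h chase. Among these 161, 0 were puromycin-short, 1 was control-long, 3 were control-short, 0 were G418-long and 6 were G418-short. At the other end, 178 of 1613 transcripts under 250 average reads met the puromycin-long rule (11.0%) and 130 the puromycin-short rule (8.06%). From 250 to 500 reads the numbers were 239 (8.80%) and 128 (4.71%) of 2717. The ratio of long to short was thus nearer to 1 where reads were fewest. No cause of this was tested.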
